A study of Mus musculus with 4 samples.

Results

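The clone described here is the set of cells that carry 1 lineage tag, a short DNA sequence read out beside each cell's transcriptome, which is named Tag3 in the Diff_MK tag library and Tag1 in the MK tag library. Cells were kept with at least 1000 detected genes and at most 15% mitochondrial UMIs, joined to the tag counts by their 16-base cell barcode, and assigned to a tag when the leading tag had at least 3 counts and at least 2 times the counts of the next tag. The clone held 539 of 4747 assigned cells in Diff_MK, or 11.4% (10.5% to 12.3%), and 280 of 4560 assigned cells in MK, or 6.14% (5.46% to 6.88%). In all, 819 of 9307 assigned cells were members, and they are set against the other assigned cells of the same library, 4208 in Diff_MK and 4280 in MK. The bracketed bounds here and below are exact at the 95% level and reflect counting error alone.

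The cells belong to MK, a mouse keratinocyte line kept in E low medium with serum, and the label Dox stands as the treatment of every sample, in both libraries alike. GFP-positive cells that carried a tag were sorted before droplet capture (10x 3′ v3), and each cell preparation gave 1 RNA library and 1 tag library. The 4 groups, Diff_MK RNA, Diff_MK tag, MK RNA and MK tag, therefore hold 1 library each. What Diff stands for is not spelled out in the labels, and the preparations share every other label. With 1 library a group there is no replicate check and no test, and cells and clones of 1 library are not replicates, so each difference below describes these cells. The level of every gene is also set beside its values in the other clones of at least 20 assigned cells, 49 clones in Diff_MK and 45 in MK.

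Keratinocytes build the stratified epidermis. Basal cells express the keratin pair Krt5 and Krt14, spinous cells switch to Krt1 and Krt10, and granular cells make the cornified envelope from proteins such as loricrin, involucrin and the small proline-rich proteins. Krt6, Krt16 and Krt17 are keratins of wounded, stressed and hair follicle epithelium. A heritable tag marks the descendants of a labelled cell, so that cells with the same tag can be compared with their neighbours in the same dish.

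The tags share a long constant stretch and differ in a short one near the 3′ end. The sequences below are those in the deposited tag names, shown for the clone and for other large Diff_MK clones because the difference between tags lies in few bases. Capitals mark the bases between the constant runs cttaggg and ccct.
Tag3 of Diff_MK and Tag1 of MK, the clone: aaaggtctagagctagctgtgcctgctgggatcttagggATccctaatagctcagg
Tag2 of Diff_MK: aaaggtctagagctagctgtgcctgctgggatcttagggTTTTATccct
Tag5 of Diff_MK: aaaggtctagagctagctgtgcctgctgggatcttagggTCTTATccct
Tag9 of Diff_MK: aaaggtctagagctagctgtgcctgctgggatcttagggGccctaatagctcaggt
The clone's tag is 56 bases long, identical in both libraries, and has 2 bases between the constant runs. Among the 98 Diff_MK tags of 154 that hold both runs, the median was 6 bases, 7 tags had fewer than the clone's tag, 4 including it had the same number and 87 had more. Among the 622 such MK tags of 1055, the median was 7 bases, with 29 shorter, 24 equal and 569 longer. Among tags that hold both runs, the stretch between the runs is thus among the shorter ones in the clone's tag, though the whole tag is not short. Whether all cells of the clone descend from 1 cell was not tested.

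The clone ranked first by size under most tag rules. Next in size were Tag2 of Diff_MK, with 498 cells, and Tag2 of MK, with 137 cells. These are different tags that share a name. Tag2 of Diff_MK matches Tag6 of MK, which had 75 cells, and Tag2 of MK matches Tag5 of Diff_MK, which had 346. With a leading tag at 5 times the next, the clone held 305 Diff_MK cells, against 326 for Tag2, and was second there. Without the condition on the next tag it held 616 of 5876 Diff_MK cells (10.5%) and 597 of 5563 MK cells (10.7%), so that the larger share in Diff_MK was not seen without that condition. Under stricter rules the share stayed larger in Diff_MK. It was 11.1% against 4.44% in MK at 5 times the next tag, and 10.7% against 4.77% with at least 10 tag counts. With the leading tag at 20% or more of a cell's tag counts it was 11.3% against 4.45%.

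Tag counts were lower in the clone than in the other clones of MK. The leading tag had a median of 95.5 counts in MK clone cells and 198 counts in the other assigned MK cells, below the median of each of the 45 other MK clones. In Diff_MK the medians were 124 counts in the clone and 163.5 in the other cells, with 30 of 49 clones above. The 10th percentile of the leading tag's share of a cell's tag counts was 8.32% in MK clone cells and 29.0% in the other cells. The same tag was also seen at low counts in cells assigned to other clones, at a median of 22 counts in Diff_MK and 13 counts in MK, in 98.1% of those cells in Diff_MK and 97.9% in MK. Other large tags were likewise seen in most cells of other clones, at medians of 9 to 23 counts in Diff_MK and 6 to 10 counts in MK. Requiring 20% or more of the tag counts of each cell to be the leading tag left 534 Diff_MK and 192 MK members, so part of the MK membership rests on cells with a weak leading tag. A second called tag was present in 6.68% of clone cells and 6.92% of other cells in Diff_MK, and in 0.357% of clone cells and 1.26% of other cells in MK.

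Sequencing depth was close between the cell sets. Clone cells had a median of 14879 UMIs in Diff_MK, against 15052.5 in the other cells, and 15633 in MK, against 15671. The median mitochondrial share was 5.59% in the clone and 6.08% in the other cells of Diff_MK, and 5.25% and 5.35% in MK. Summed UMIs were 8470487 for the clone and 66099168 for the other cells in Diff_MK, and 4377036 and 67782269 in MK. Of the cell barcodes, 14 occurred in both RNA libraries, and none of them belonged to a clone cell.

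The keratinocyte label held for the clone. All 6 basal markers (Krt5, Krt14, Trp63, Itga6, Itgb4, Col17a1) were at 20 CPM (counts per 1e6 UMIs) or more in both libraries, and 5 of 6 suprabasal markers were, with Krt1 at 0 in the clone. None of the melanocyte, fibroblast, immune, endothelial or Merkel cell markers reached 20 CPM in either library. The summed level of each of these 5 lists in the clone lay between 0.472 and 22.6 CPM. Flg, the filaggrin gene of granular cells, was also at 0 in the clone.

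Compared with the other Diff_MK cells, the clone had low Krt17, a keratin of wounded skin and hair follicles, and high Lgals7, which encodes the epithelial galectin-7. Krt17 (ENSMUSG00000035557, chromosome 11, 100256217 to 100261029 on GRCm38) had 94.2 CPM in the clone and 514 CPM in the other cells, a ratio of 0.183 (0.171 to 0.197). Lgals7 (chromosome 7, 28863853 to 28866284) had 1459.8 CPM in the clone and 739 CPM in the other cells, a ratio of 1.98 (1.94 to 2.01). Neither value was outside the range of the other clones, since 40 of 49 clones were above the clone for Krt17 and 5 of 49 for Lgals7. Of 5400 genes at 20 CPM or more in either cell set, 12 (0.222%) had a level in the clone at least 1.5 times that in the other cells, and 64 (1.19%) were lower by the same factor. The median log2 ratio over all measured genes was -0.03, and no measured gene lay outside the range of all other clones.

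**Figure D1:**
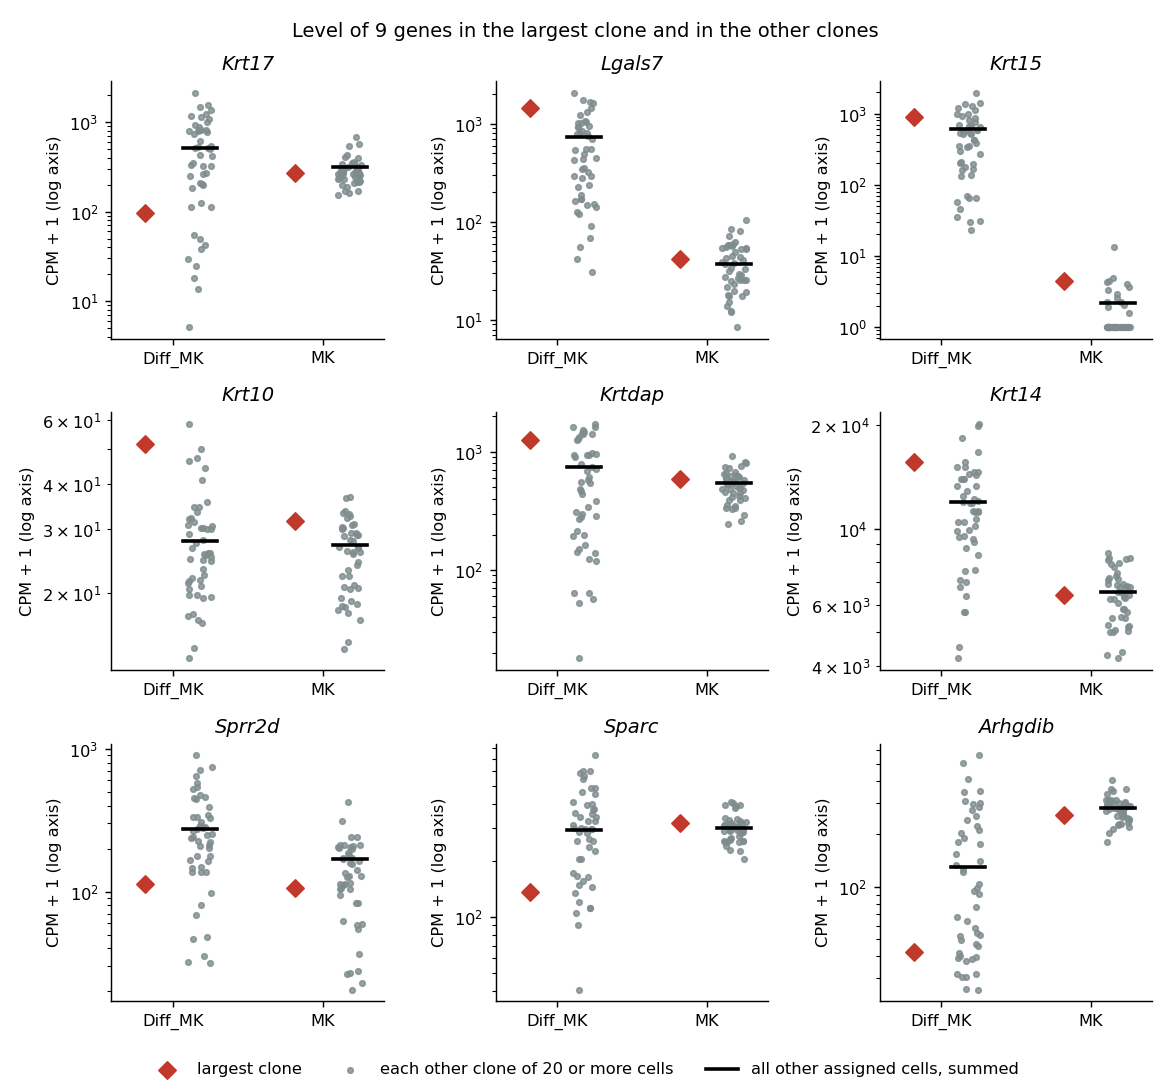
CPM + 1 on a log axis for 9 genes in Diff_MK and MK, with the largest clone as a diamond, each other clone of 20 or more cells as a dot and the summed other assigned cells as a bar. Krt17 in the Diff_MK clone (94.2 CPM) lies below 40 of 49 clones, while in MK the diamond and the bar lie close together for most genes; the Krt10 diamond in Diff_MK rests on 1 cell.

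The 12 higher genes included markers of the suprabasal layers. Krtdap, which encodes a secreted keratinocyte differentiation-associated protein, had 1249 CPM in the clone and 750 CPM in the other cells (ratio 1.67, 11 of 49 clones above). Defb1, a beta-defensin gene, had 189 and 121 CPM in the clone and the other cells (1.57), and Gadd45g, a growth-arrest gene, had 133 and 87.8 CPM (1.52). The placental-type hormone genes Prl8a9 (39.7 and 19.6 CPM) and Prl2c2 (50.9 and 31.2 CPM) were higher in the clone by 2.03-fold and 1.63-fold. Reads of Prl2c2 and of the small proline-rich gene Sprr2a3 (54.2 and 34.4 CPM) may be shared with near-identical copies, so both are uncertain. Edn2, a vasoconstrictor peptide gene, Rac3, a small GTPase gene, Vcan, the gene of the matrix proteoglycan versican, and the serpin gene Serpinb6c completed the 12, at ratios between 1.54 and 1.80.

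Krt10, the spinous keratin, was the exception among these genes. It had 50.5 CPM in the clone and 26.9 CPM in the other cells, a ratio of 1.88, but 1 clone cell held 223 of the 428 Krt10 UMIs. Without that cell the clone had 24.2 CPM, a ratio of 0.900. The share of cells with a Krt10 UMI, after thinning each cell to 7500 UMIs, was 16.6% in the clone and 16.6% in the other cells. Leaving out the highest clone cell for each gene kept 9 of the 12 higher genes past 1.5-fold, with Gadd45g and Sprr2a3 at a ratio of 1.49. All 64 lower genes stayed past it too, but the step lowers the clone's level, so it cannot check them.

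Basal keratins were also somewhat higher in the Diff_MK clone, below the 1.5-fold mark. Krt14 had 15579 CPM in the clone and 11947 CPM in the other cells (1.30, 5 of 49 clones above), and its partner Krt5 had 3606 and 2882 CPM (1.25, 8 above). Krt15, a keratin of the basal layer and the hair follicle bulge, sat just under the mark at 899 and 601 CPM (1.496, 1.46 to 1.53). Krt16 had 728 and 527 CPM (1.38) and Krt6a 3867 and 3039 CPM (1.27). Over all clone cells, Krt17 alone of these 3 stress keratins thus lay on the lower side.

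Fewer cells of the Diff_MK clone carried Krt17. After thinning, 16.6% of clone cells (13.4% to 20.1%) and 54.5% of other cells (52.9% to 56.1%) had a Krt17 UMI, and unthinned the shares were 24.5% and 63.3%. Thinning left out 32 clone cells and 254 other cells in Diff_MK. The 54 clone cells with the most Krt17 (10% of the cells) held 89.3% of the clone's Krt17 UMIs, against 59.2% in the top 421 of the other cells. The median cell with a Krt17 UMI had 1 in the clone and 6 among the other cells. No cell type that should lack Krt17 was present, and of the other Diff_MK clones the one with the lowest unthinned share, Tag31, had a Krt17 UMI in 6.82% of its 44 cells at a median of 15765 UMIs a cell. The part of free RNA in these shares was not tested. For Lgals7 the thinned shares were 78.7% in the clone (74.9% to 82.2%) and 58.2% in the other cells (56.7% to 59.8%), for Krt15 47.3% and 37.6%, and for Krt16 52.7% and 40.4%.

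Several other genes named here were also among the 64 lower ones. Sparc, which encodes a collagen-binding matrix protein, had 134 CPM in the clone and 291 CPM in the other cells (0.462, 42 of 49 clones above). Arhgdib, a gene of an inhibitor of small GTPases, had 41.4 and 129 CPM (0.321), and Stmn2, a microtubule regulator gene, 15.9 and 47.2 CPM (0.338). Sprr2d, a small proline-rich gene of the cornified envelope with close copies, had 111 and 271 CPM (0.410), the neutrophil chemokine gene Cxcl3 107 and 190 CPM (0.564), and the cytokine gene Il1a, on distal chromosome 2, 61.7 and 96.7 CPM (0.639). The overlapping neighbours Tmem176a (32.7 and 62.1 CPM) and Tmem176b (43.3 and 83.9 CPM) were both near a ratio of 0.52, and their reads may not be separable. Krt7, a simple epithelial keratin, had 23.1 and 35.6 CPM (0.649), and S100a4, a calcium-binding protein gene, had 38.1 and 62.5 CPM (0.610). Krt18 was below the minimum level for measured genes in both cell sets, so it is not among the 64. It had 1 UMI in the clone, 0.118 CPM against 8.44 CPM in the other cells, and 17 of 49 clones were above the clone.

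Position in the genome set many of the lower genes apart. Of the 64, 32 lay on chromosome 2, and 31 of these between 127270218 and 163750239 (GRCm38). Among the 143 measured genes between 120 and 160 Mb of chromosome 2, 129 were below the other cells, 26 were at least 1.5-fold lower, and the median log2 ratio was -0.36, while 40.4% of all measured Diff_MK genes lay above the other cells. Examples were Dstn, an actin-severing protein gene, at 368 CPM in the clone and 584 CPM in the other cells, Cst3, the cystatin C gene, at 187 and 284 CPM, and Xrn2, an RNA exonuclease gene, at 95.5 and 158 CPM. The ratio of the summed level of the stretch was 0.809, with 40 of 49 other clones above the clone. From 100 to 120 Mb the median was -0.01, with 0 of 50 genes past 1.5-fold. From 160 to 180 Mb it was -0.08, with 37 of 49 genes below and 5 past 1.5-fold lower, so the lower genes ran on past 160 Mb. In MK the 157 measured genes of the stretch had a median of 0.01.

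Chromosome 10 showed a smaller shift along its whole length in the Diff_MK clone. Its 257 measured genes had a median log2 ratio of -0.21, and 245 of them were below the other cells, while 5 of them, among them the hexokinase gene Hk1 and Cited2, a transcriptional coregulator gene, were past 1.5-fold. Chromosome 9 had a median of -0.10, chromosome 18 of 0.08, and the remaining chromosomes lay between -0.08 and 0.04. In MK every chromosome median lay between -0.03 and 0.01. Chromosome shifts were thus seen in the clone of Diff_MK and not at this size in that of MK.

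**Figure D2:**
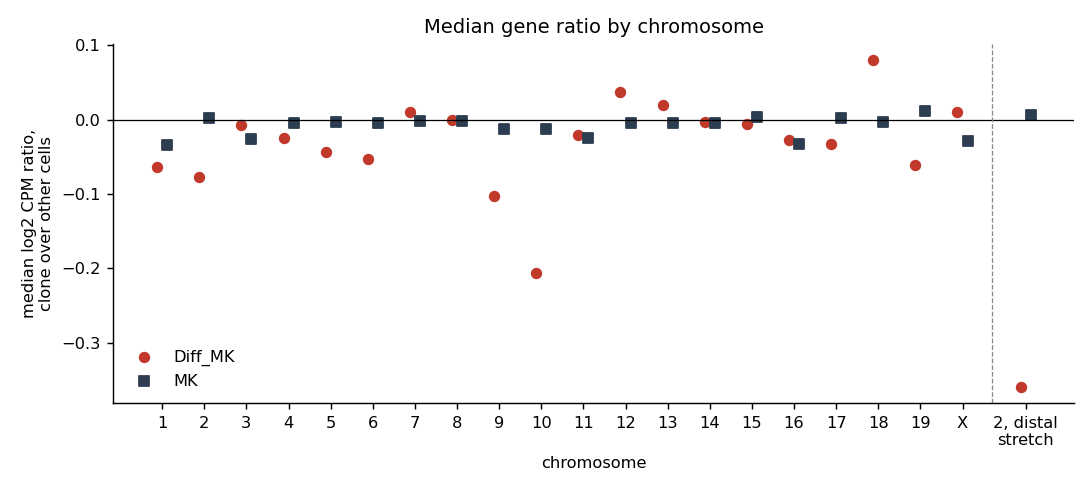
Median log2 CPM ratio of the clone over the other assigned cells by chromosome, with circles for Diff_MK and squares for MK. The distal stretch of chromosome 2 is drawn apart at the right. Chromosome 10 (-0.21) and the chromosome 2 stretch (-0.36) stand below the other Diff_MK medians, and the MK squares stay near 0.

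Cell by cell, the chromosome 10 share fell into a lower and an upper range in both libraries. Among the other cells the sparsest bin between the ranges lay at 4.625% to 4.875% of a cell's UMIs in Diff_MK and at 4.875% to 5% in MK, and a cut of 4.7% was used for both. In Diff_MK 80 of 539 clone cells (14.8%, 11.9% to 18.1%) were at or over 4.7%, against 2345 of 4208 other cells (55.7%, 54.2% to 57.2%). In MK 94 of 280 clone cells (33.6%, 28.1% to 39.4%) were, against 1507 of 4280 other cells (35.2%, 33.8% to 36.7%). At a cut of 5%, nearer the MK trough, the shares were 9.46% of clone cells and 45.3% of other cells in Diff_MK, while in MK 70 of 280 clone cells and 26.9% of other cells were at or over it. The clone's Diff_MK cells thus mostly had the lower share, while its MK cells had nearly the mix of their library. Other Diff_MK clones ran from 3.66% to all of their cells, with 8 clones under 10% and 18 over 90%, and other MK clones from 7.69% to 83.3%, with 2 under 10% and 0 over 90%. These are ranges and not cell types, and 75 clone cells and 581 other cells of Diff_MK lay within 0.2 percentage points of the 4.7% cut. Both cuts were chosen after the values were seen.

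**Figure D3:**
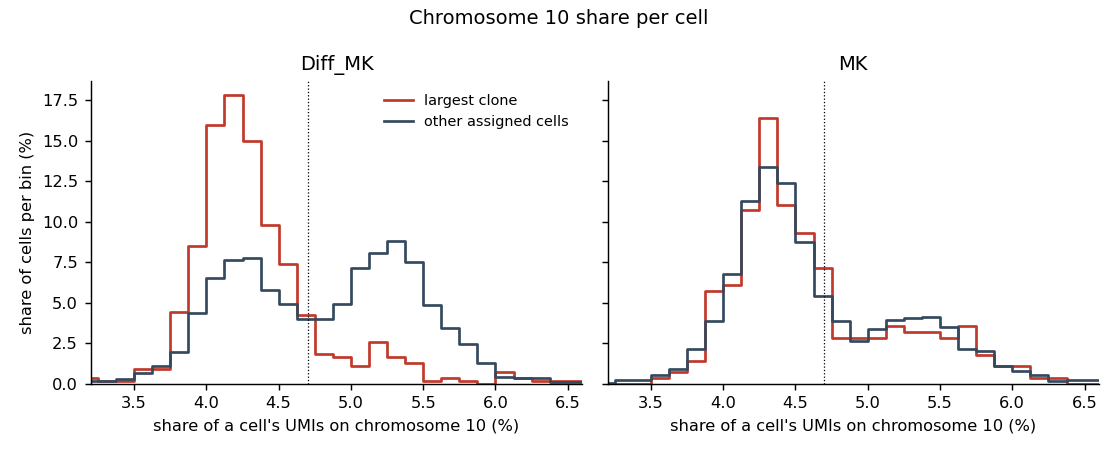
Distribution over cells of the share of a cell's UMIs on chromosome 10 (percent) for the largest clone and the other assigned cells, in Diff_MK and MK, with the cut of 4.7% dotted. In Diff_MK 14.8% of clone cells and 55.7% of other cells lie at or over the cut, and in MK 33.6% and 35.2%.

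Other Diff_MK clones with few upper-range cells had levels near or beyond the clone's for several of these genes. Of the 8 other clones under 10%, 6 were below the clone for Krt17 (4.16 to 271 CPM over the 8), 5 were above it for Lgals7 (960 to 2081 CPM), 7 were above it for Krtdap, and 6 were below it for Arhgdib. For Sprr2d all 8 were above the clone, at 136 to 522 CPM.

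Genes were also compared within each range in Diff_MK. In the lower range, 459 clone cells against 1863 other cells, 1 of 5305 genes was at least 1.5-fold higher in the clone, the aldehyde dehydrogenase gene Aldh2, and 23 were lower, and none of the 12 higher genes but 13 of the 64 lower genes were still past the mark. In the upper range, 80 clone cells against 2345 other cells, 181 of 5683 genes were higher and 110 lower, among them 5 of the 12 and 19 of the 64. Krt10 was 1 of these 5, with 251 UMIs in the 80 cells, 223 of them in 1 cell. Sums over 80 cells rest on few UMIs, so the counts are not compared between the ranges. Krt17 had 29.9 CPM in lower-range clone cells and 251 CPM in lower-range other cells (0.119, 0.104 to 0.136). In the upper range it had 456 CPM in clone cells and 727 CPM in other cells (0.627, 0.577 to 0.681), and 583 of the clone's 798 Krt17 UMIs were in these 80 cells. Krt17 was thus lower in the clone in both ranges, by far more in the lower one. The ratio of Sprr2d was 0.322 in the lower and 0.934 in the upper range, that of Sparc 0.635 and 0.584, and that of Arhgdib 0.655 and 0.448. Lgals7 came to ratios of 1.33 and 1.36 in the lower and upper range, Krtdap to 1.15 and 1.80, Krt15 to 1.14 and 0.765, and Krt14 to 1.11 and 1.07. Krt16 came to 0.934 (0.908 to 0.962) in the lower range, below the other cells, and to 1.36 in the upper range. The median log2 ratio of the chromosome 2 stretch was -0.11 in the lower range, with 0 genes past 1.5-fold lower, and -0.21 in the upper range, with 25. The part of the cell mix in the whole-clone ratios was not tested.

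Sex-linked RNA in the clone was like that of most other clones. Xist, the noncoding RNA of the inactive X chromosome, had 7 UMIs in the Diff_MK clone and 787 in the other cells, or 0.826 and 11.9 CPM, and 13 of 49 clones were above the clone, with a median of 0 and the highest at 335 CPM. The Y-linked Eif2s3y had 41.4 CPM in the clone and 42.5 CPM in the other cells, and Ddx3y 17.5 and 16.2 CPM. In MK Xist had 0 UMIs in the clone and 3 in the other cells.

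In MK the clone differed little from the other cells. Of 5611 measured genes, 0 were at least 1.5-fold higher in the clone (0%) and 7 were lower (0.125%). These were Lcn2, the lipocalin-2 gene, at 18.05 CPM in the clone and 42.6 CPM in the other cells (0.423, 0.334 to 0.529), Mt4, an epithelial metallothionein gene, at 15.8 and 28.1 CPM (0.560), Ddit3, a stress-induced transcription factor gene, at 18.96 and 32.5 CPM (0.584), and Sprr2d at 105 and 167 CPM (0.629). The other 3 were the decoy receptor gene Tnfrsf23, Ccdc32 and Sh3bp4, an endocytic adaptor gene, with ratios between 0.649 and 0.664. For Lcn2 23 of 45 clones were above the clone and the highest reached 218 CPM, so the clone itself sat near the middle of the clones. Lcn2, Mt4, Ddit3 and the last 3 rested on 65 to 83 clone UMIs each, and Sprr2d on 461.

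Sprr2d and Mt4 were past 1.5-fold the same way in both libraries, 2 of 5174 genes measured in both (0.0387%). They make up 3.13% of the genes lower in the Diff_MK clone and 28.6% of those lower in the MK clone. The unthinned share of MK cells with a UMI was close, at 38.6% in the clone and 38.9% in the other cells for Sprr2d. For Mt4 these MK shares were 11.8% and 12.1%. In Diff_MK the shares were 21.3% in the clone and 35.5% in the other cells for Sprr2d, and 6.49% and 11.2% for Mt4. Mt4 had 19.7 CPM in the Diff_MK clone and 37.6 CPM in the other cells (0.525), with 26 of 49 clones above, and in MK 24 of 45 clones were above. The Diff_MK genes had MK ratios closer to 1: Krt17 had 266 CPM in the MK clone and 311 CPM in the other cells (0.855, 0.806 to 0.907), Lgals7 40.7 and 36.6 CPM (1.11, 0.948 to 1.29), Sparc 316 and 299 CPM (1.06) and Arhgdib 257 and 280 CPM (0.917). Some of these MK values moved with the tag rule. With a leading tag at 20% of tag counts, the MK log2 ratio of Lgals7 was 0.44 in place of 0.15. That of Arhgdib was -0.30 in place of -0.13, while Krt17 moved nearer to the other cells, at -0.11 in place of -0.23. The share of MK cells with a Krt17 UMI after thinning was 65.3% in the clone and 64.0% in the other cells. Krt8, a simple epithelial keratin, was lower in the Diff_MK clone (54.7 against 71.5 CPM, 0.765) and higher in the MK clone (105 against 77.5 CPM, 1.35). The MK direction of Krt8 turned under other settings, at a log2 ratio of -0.37 in cells under 4.7% of UMIs on chromosome 10 and -0.03 without the condition on the next tag.

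**Figure D4:**
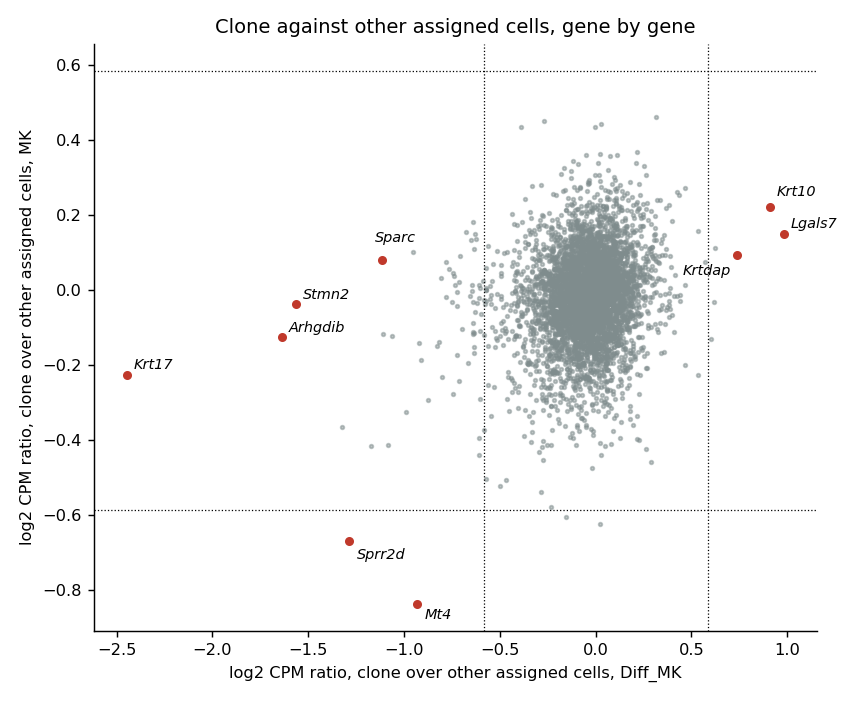
Log2 CPM ratio of the clone over the other assigned cells in Diff_MK (x axis) and MK (y axis), 1 dot for each of 5174 genes measured in both libraries, with 1.5-fold marks dotted and named genes in red. Sprr2d and Mt4 are past the mark in both, and Krt17, Stmn2, Arhgdib, Sparc, Lgals7, Krtdap and Krt10 are past it in Diff_MK.

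Gene lists gave the same picture of small, broad shifts, and the lists were described by counts and medians beside the median of all measured genes (-0.03 in Diff_MK, -0.01 in MK) and the share of them above the other cells (40.4% in Diff_MK, 46.4% in MK). Cholesterol synthesis genes were on the higher side in the Diff_MK clone: 18 of 20 measured genes were above the other cells, 0 past 1.5-fold, with a median log2 ratio of 0.25. Fdps, the farnesyl diphosphate synthase gene, had 432 CPM in the clone and 319 CPM in the other cells, and Mvd, the mevalonate decarboxylase gene, 67.2 and 47.7 CPM. Within the lower chromosome 10 range the Diff_MK median was 0.10. In MK 4 of 17 were above, with a median of -0.05. Hypoxia and glycolysis genes had 18 of 22 above and a median of 0.11 in Diff_MK, led by the stress-responsive Ndrg1 (123 and 87.4 CPM), against 7 of 19 and -0.02 in MK, and the Diff_MK median turned to -0.05 with a leading tag at 5 times the next.

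Differentiation lists were mixed. Of 8 measured spinous genes in Diff_MK, 3 were past 1.5-fold higher (Lgals7, Krtdap and Krt10, the last through 1 cell) and 1 lower, Ovol1, an epithelial transcription factor gene, at 18.4 CPM in the clone and 29.0 CPM in the other cells. The spinous median was 0.18, and -0.17 within the lower chromosome 10 range. Of 14 granular and cornified envelope genes, 4 were above and 10 below, with Sprr2d and Sprr2e past 1.5-fold lower, and the median was -0.15. Sprr1b went the other way, at 1461 CPM in the clone and 1159 CPM in the other cells, as did the granular protease gene Asprv1 at 60.3 and 43.1 CPM. Of 16 basal genes, 10 were above, with a median of 0.06, and Trp63, the basal transcription factor gene, had 88.5 and 84.4 CPM.

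G2/M genes lay slightly below the other cells in the Diff_MK clone and slightly above them in the MK clone, and the sign of both medians depended on the tag rule. Of 40 G2/M genes in Diff_MK, 9 were above the other cells (median -0.10), and of 41 in MK 26 were above (median 0.05). With a leading tag at 5 times the next the Diff_MK median was 0.08, and with one at 20% of tag counts the MK median was -0.05. Of G1/S genes, 11 of 28 were above in Diff_MK (median -0.04, and 0.12 with a leading tag at 5 times the next) and 24 of 31 in MK (0.05), and the Diff_MK count was near the share of all genes. Pcna, the replication clamp gene, which lies in the chromosome 2 stretch, had 95.04 CPM in the Diff_MK clone and 141 CPM in the other cells (0.673, just short of the mark). All 6 replication-dependent histone genes were above in MK (median 0.17), and Hist1h1b had 275 and 239 CPM. None of these lists had a member past 1.5-fold in either library.

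Smaller groups lay below the other cells in the Diff_MK clone. Of 13 mitochondrially encoded genes, 12 were below, with a median of -0.14 and mt-Co1 as the exception (7731 and 7396 CPM). In MK 12 of the 13 were below as well, with a median of -0.03. All 5 measured MHC class I and interferon-stimulated genes were below, with a median of -0.22, among them the MHC gene H2-D1 at 186 CPM in the clone and 251 CPM in the other cells. The mesenchymal list had 4 measured members and a median of -0.42 (0.04 with a leading tag at 5 times the next), with Sparc and S100a4 past 1.5-fold lower, while the transcription factor gene Snai2 had 46.6 and 42.8 CPM. The prolactin list had 3 measured members, all above, with a median of 0.70. Within the lower chromosome 10 range that median was 0.19, and reads of Prl2c2 may be shared with near-identical copies.

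**Figure D5:**
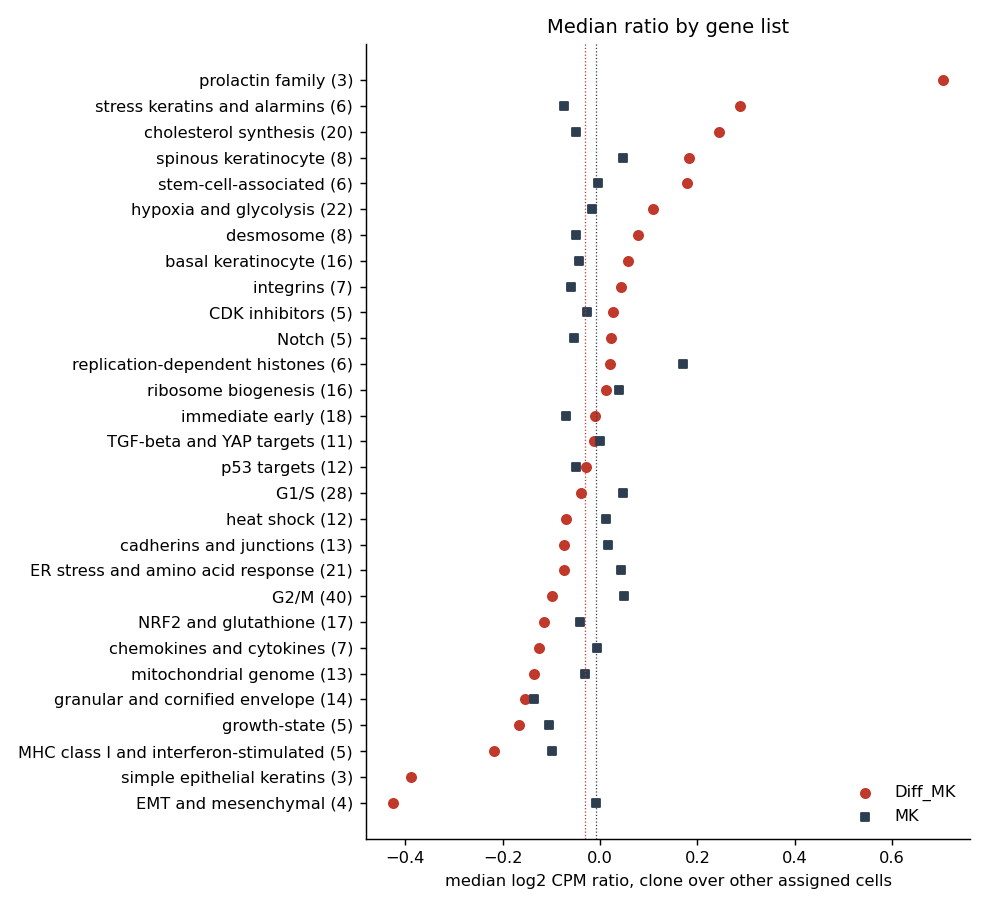
Median log2 CPM ratio of the clone over the other assigned cells for each gene list with at least 3 measured members, with circles for Diff_MK and squares for MK, the number measured in Diff_MK in brackets and the median of all genes dotted. Diff_MK medians run from -0.42 (mesenchymal) to 0.70 (prolactin), and MK medians from -0.13 to 0.17.

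Between the libraries the clone's own cells changed more genes past 2-fold than the other cells did. Of 5174 genes, 68 were higher and 97 lower in Diff_MK than in MK clone cells by a factor of 2 or more, against 40 and 12 for the other cells, and 39 and 11 genes were shared. The clone sums rest on fewer UMIs and on 1 tag, so these counts are not set against chance. Krt17 was the 1 gene past 1.5-fold in opposite directions: its level in Diff_MK over MK was 0.354 (0.323 to 0.388) in the clone and 1.65 (1.62 to 1.68) in the other cells. Of 20 other clones with at least 20 cells in both libraries, 19 had a higher ratio for Krt17 than the clone. Sparc had 0.425 in the clone and 0.974 in the other cells, and Arhgdib 0.162 and 0.461. Lgals7 was 35.9-fold higher in Diff_MK than in MK clone cells and 20.2-fold higher in the other cells, with 3 of the 20 clones above the clone. Krt14 was 2.43-fold and 1.83-fold higher, and none of the 20 clones exceeded the clone. Krt15 had 7611 UMIs in Diff_MK clone cells and 15 in MK clone cells. Its level was 262-fold higher in Diff_MK than in MK clone cells and 509-fold higher in the other cells. Of the 9 other clones with a Krt15 ratio, 5 were above the clone and 4 below.

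Cells of the clone were a little more alike than cells of different clones. The mean correlation over 2000 variable genes was 0.756 between Diff_MK clone cells and 0.749 between clone cells and other cells, a difference of 0.0066, which 33 of 46 other clones exceeded. In MK the values were 0.769 and 0.765, a difference of 0.0045, which 14 of 45 other clones exceeded. The clone was thus not set apart as a tight group of cells in either library.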

How the data were processed

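Single-cell RNA libraries (10x 3′ v3) and tag libraries came from GFP-positive MK keratinocytes, per the labels' protocols. The RNA files give raw UMI counts for each gene in each barcode, as deposited. Cell Ranger 6.1.2 wrote them, per the file headers, and the build was mm10, per the submitters' processing notes. The tag files give raw counts for each tag, as the authors deposited them. The tool behind them, and whether they are UMIs or reads, is not given in the sources used here. Tag counts are therefore not taken as independent molecules. Counts of the entry named unmapped (10.1% of Diff_MK and 18.2% of MK tag counts) were kept out.

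Diff_MK had 7569 barcodes and 105961628 UMIs, MK 7780 and 116732898, and 6912 and 7175 cells were kept. Of these, 458 and 764 had no entry in the tag matrix. UMIs were summed over cell sets and scaled to CPM. Ratios carry exact conditional binomial intervals and shares exact Clopper-Pearson intervals at 95%. Genes at 20 CPM in either set and past 1.5-fold were counted. With 1 library a group no p-value was computed. Doublets were not removed. A second tag was called at 3 counts and 10% of a cell's tag counts. Detection shares use cells cut down at random to 7500 UMIs each. Shallower cells were dropped, 32 clone and 254 other cells of Diff_MK and 12 and 102 of MK. Gene positions come from GENCODE vM21 (GRCm38), in which 99.8% of 32285 genes were placed by identifier. The steps (Python 3.11.15, numpy 2.4.6, scipy 1.17.1, pandas 2.3.3) were tested on simulated data.

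The members and the 34 gene lists were chosen with earlier results of these data known. Named genes are, per library, the 12 highest and 12 lowest ratios after adding 5 CPM among genes at 50 CPM or more (without predicted, mitochondrial and ribosomal protein genes), genes past the fold in both libraries, the most abundant and the extreme members of each list, and Krt15, Krt14, Krt5, Krt10, Lor, Ivl, Krt8, Krt18 and Trp63. Xist, Eif2s3y, Ddx3y, Aldh2, Flg, Stmn2, Edn2, Rac3, Vcan, Sprr2a3, Dstn, Cst3, Hk1 and the other genes of the report outside this rule were chosen after their values were seen. Alternatives changed the scaling, weighting, minimum level, fold, cell filters, tag rules and comparison cells. Leaving out each large other clone, the chromosome 2 stretch, cells with a weak leading tag or cells at 4.7% or more of UMIs on chromosome 10 was added after seeing the data.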

Additional observations from a re-analysis of the deposited data

Results flagged for a closer look

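For Sparc and Trmt6 the clone stood on opposite sides of the other cells in the Diff_MK and MK libraries. Sparc had a CPM ratio of 0.462 in Diff_MK, past 1.5-fold lower, while its MK ratio was 1.06 with an interval above 1, although the MK log2 ratio was -0.01 without the condition on the next tag. Trmt6, a tRNA methyltransferase subunit gene on distal chromosome 2, had a ratio of 0.637 in Diff_MK (44.4 CPM in the clone and 69.7 CPM in the other cells) and 1.10 in MK. The difference between the libraries was not tested, since each holds 1 library.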

How the results depend on the processing

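No paired analysis was possible because each group holds 1 library and the labels give no replicate numbers. The counts of genes past 1.5-fold are given here as higher and lower in Diff_MK, higher and lower in MK, and shared by both, where they moved by over 1.5 times. A minimum of 10 counts in place of 20 CPM gave 593, 1512, 728, 1486 and 520. A minimum of 50 CPM gave 31 lower in Diff_MK, 1 lower in MK and 1 shared. At 2-fold there were 1 higher and 10 lower in Diff_MK, 1 lower in MK and 0 shared. With 10 tag counts there were 11 lower in MK, 1 shared and an MK share of 4.77%. With 5 times the next tag there were 19 higher in Diff_MK, 8 higher and 16 lower in MK and a share of 4.44%. Without the dominance condition there were 19 higher in Diff_MK, 1 lower in MK, 1 shared and a share of 10.7%. With a leading tag at 20% of tag counts there were 4 higher and 18 lower in MK and a share of 4.45%. Weighting each cell equally gave 1 higher in MK. Weighting each other clone equally gave 25 higher and 121 lower in Diff_MK, 4 higher and 3 lower in MK and 1 shared. Using the other clones assigned in both libraries gave 1 higher in MK and 1 shared. Without the chromosome 2 stretch 38 were lower in Diff_MK. In cells under 4.7% of UMIs on chromosome 10 there were 1 higher and 23 lower in Diff_MK and 2 higher and 15 lower in MK. Apart from the added conditions, which remove genes or cells, the cause was not tested. Leaving out each of the 10 largest other clones gave 12 to 17 higher and 53 to 77 lower genes in Diff_MK, and 0 higher and 7 to 8 lower in MK. Of 3099 log2 ratios of genes under these settings, 234 left the counting interval. Of the 124 values of named genes, 31 had a log2 ratio of the other sign under at least 1 setting. For genes past 1.5-fold and at 20 CPM this was Krt10 in Diff_MK, at -0.25 in cells under 4.7% on chromosome 10. Others were Krt8 in MK at -0.37 and Lcn2 in Diff_MK at -3.09 in those cells, and Krt15 in MK, on 15 clone UMIs, at -0.37 in cells with 1 called tag.

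Krt17 in Diff_MK ran from -3.61 to -2.10 on the log2 scale over the settings. Clone sums in MK rest on 280 cells, so a gene at 20 CPM has few UMIs, and the intervals leave out differences between preparations.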
